A study of Mus musculus with 5 samples.

Results

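The AP-1 and Maf transcription factors were followed through ribonucleoprotein immunoprecipitates (RNP-IPs) of myc-tagged AUF1 p42 from mouse fibroblasts, for 9 genes: Fos, Fosb, Fosl1, Fosl2, Jun, Junb, Jund, Maf and Mafk. Every probe set that the array annotation gives to 1 of these symbols alone was taken, which made 18 of the 45101 probe sets on the array and 9 of the 18194 genes with a probe set of their own. Maf stood out among them. One of its probe sets was 15.3-fold higher in the induced-labelled RNP-IPs than in the controls, where the signal of total RNA was too low to read. Against the uninduced-labelled RNP-IPs alone it was 9.04-fold higher, and both calls were lost when certain single RNP-IPs were left out. Another Maf probe set was 7.58-fold above total RNA in the induced-labelled RNP-IPs and 7.85-fold above it in the uninduced-labelled ones, with no difference called between the RNP-IPs. Fosl1 and Jun mRNAs were lower in all RNP-IPs than in total RNA, with Fosl1 9.39-fold lower in the induced-labelled ones and 10.1-fold lower in the uninduced-labelled ones. No difference between the RNP-IPs was called for Fos, Fosl1, Fosl2, Jun, Jund or Mafk, and the arrays gave no level for Fosb or Junb.

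AP-1 is a dimer of basic leucine zipper proteins, in which a Fos family protein pairs with a Jun family protein, or Jun proteins pair with each other, on a short DNA element. Fos and Jun are immediate early genes of fibroblasts, switched on within minutes of a growth stimulus, and the Fos mRNA is a classical example of an unstable message with an AU-rich element in its 3' untranslated region. AUF1, encoded by Hnrnpd, is a protein that binds such elements. The Maf proteins carry the same kind of zipper. Large Maf proteins such as Maf activate transcription on their own, whereas small ones such as Mafk have no activation domain and work through partners of the CNC family.

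NIH/3T3 cells, an established line of mouse embryonic fibroblasts, carried the vectors pBSwitch and pSLHGC-MYC-AUF1 p42 in both RNP-IP groups. The vectors were introduced by retroviral infection and selected with blasticidin while mifepristone was present, so the uninduced-labelled cells held them as well. For the 2 RNP-IPs with the label induced, 1 nM mifepristone was on the cells for 24 h. The other 2, with the label uninduced, came from cells without AUF1 induction, and all 4 were collected on anti-c-myc agarose beads, which also adsorb other RNA. The fifth array held total RNA, and the sources used here do not say whether its cells carried the vectors or had been induced. Each array gives log2 signals after robust multiarray averaging (RMA). The medians of the arrays were between 3.77 and 3.83, and between 13168 and 13649 probe sets per array reached log2 5, which was taken as the lowest level worth reading.

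Some facts about the whole set of arrays touch the values below. Hnrnpd was lower in the induced-labelled RNP-IPs, with log2 signals of 6.72 and 7.39, against 11.35 and 11.85 in the uninduced-labelled ones and 10.60 in total RNA, which runs against the label. Where this probe set lies relative to the vector's sequence is not known, and this gene alone does not settle the labels, so the RNP-IPs are called by them, and every direction between the RNP-IPs rests on them. The array's own control for the 5' end of Gapdh stood at 8.18 and 4.24 in induced-labelled RNP-IPs 1 and 2, 3.65 and 7.81 in uninduced-labelled RNP-IPs 1 and 2 and 6.93 in total RNA, so that induced-labelled RNP-IP 2 and uninduced-labelled RNP-IP 1 were the low ones. The 3' control of Gapdh was lower on these arrays as well, at 9.71 and 9.70, against 11.90, 12.11 and 12.32 on the others. Its 3' signal minus its 5' signal was 3.71 and 5.47 in the induced-labelled RNP-IPs, 6.05 and 4.29 in the uninduced-labelled ones and 5.40 in total RNA. Arrays grouped by the 5' signal alone are therefore not matched in this difference. All 10 fibroblast markers were at or above log2 5 on every array, as was Epcam among the epithelial markers. The other 3 epithelial markers, all 4 endothelial ones, 2 of 3 blood markers and 3 of 4 neural ones were under log2 5 on every array. The blood marker Cd3e was at 5.16 and 5.08 in the induced-labelled RNP-IPs, 4.68 and 4.69 in the uninduced-labelled ones and 4.73 in total RNA, and the neural marker Rbfox3 was between 4.92 and 5.41. The part of these signals in the results was not tested.

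A promoter of 300 bases was found in RefSeq (GRCm38.p6) for 7 of the 9 genes, all but Fosl1 and Maf. Windows of 40 bases are shown for Fos and Jun, whose promoters are the textbook examples of a cAMP-response element and of an AP-1-like element in a gene of AP-1 itself, to show the kind of site these proteins bind. They are written 5' to 3' on the strand of the gene, and capitals mark the letters searched on both strands, TGACG for Fos and TGACATCA for Jun.
Fos, chr12:85473806-85473845, plus strand: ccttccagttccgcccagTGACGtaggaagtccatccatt
Jun, chr4:95052244-95052283, minus strand: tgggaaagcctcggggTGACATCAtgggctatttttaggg
The capitals begin at position -66 from the start site in Fos and at -45 in Jun. TGACG was also found in Fosb, Junb and Mafk, which makes 4 of 7 promoters, and it lies in 20.8% of the 32851 promoters of this length. TGACATCA, found in Jun alone, lies in 3.62% of them. The full AP-1 site TGACTCA was in none of the 7, against 5.2% of all promoters, and the full cAMP-response element TGACGTCA was in none either, against 1.79%. A match is a description of letters, and RNP-IPs measure mRNA on beads and not these promoters.

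Of the 18 probe sets, 8 were at or above log2 5 on every array, 8 were under it on every array, and 2 crossed it, both of Maf. Fosb, a Fos family subunit, was at 3.43 and 3.43 in the induced-labelled RNP-IPs, 3.65 and 3.41 in the uninduced-labelled ones and 3.43 in total RNA, on a single probe set. Junb, a Jun family subunit that can hold back Jun activity, was at 3.29 and 3.23 in the induced-labelled RNP-IPs, 3.15 and 3.22 in the uninduced-labelled ones and 3.22 in total RNA. Neither gene could be followed at these signals. Fosl1, Jun and Jund each had a second probe set that was under log2 5 on all arrays, and Maf had 3 such probe sets.

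**Figure D1:**
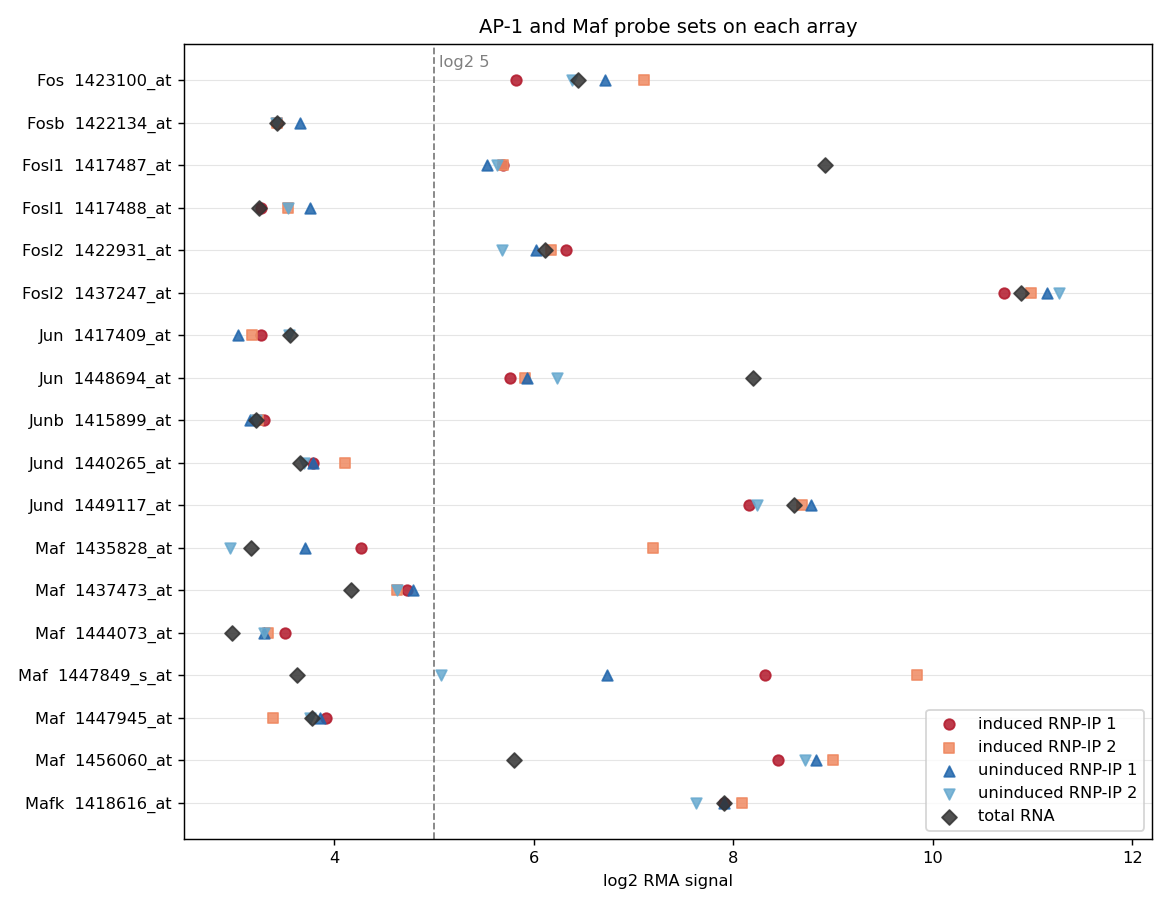
Log2 RMA signal (horizontal axis) of the 18 probe sets of the 9 genes, 1 probe set per line, each marker 1 array, with RNP-IPs named by their labels and the dashed line at log2 5. Fosl1 1417487_at and Jun 1448694_at have total RNA far to the right of all 4 RNP-IPs, Maf 1456060_at has it far to the left, and Maf 1447849_s_at spreads its 5 arrays between 3.62 and 9.84.

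The question put to the arrays by the study's design was which mRNAs are held on the beads when AUF1 p42 is induced. The induced-labelled RNP-IPs were therefore set against the 2 uninduced-labelled ones and total RNA as 1 group of 3 controls, with limma fitted to all probe sets. Calls follow the rule of the study's methods, which asks for a change of 3-fold or more with an adjusted p (Benjamini-Hochberg) under 0.5. Of the 18 probe sets, 1 was called higher, of Maf, and none lower. Over all 45101 probe sets 1.16% were called higher and 1.66% lower. No probe set on the array had an adjusted p under 0.05 from limma in any comparison, while 1 of the 18 had an unadjusted p under 0.05 in this one, as did 10.7% of all probe sets. The median log2 fold change was 0.01 over the 18 and 0.00 over all probe sets.

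The probe set that was called, Maf 1447849_s_at, had log2 signals of 8.32 and 9.84 in the induced-labelled RNP-IPs, 6.74 and 5.07 in the uninduced-labelled ones and 3.62 in total RNA. Each of the 2 induced-labelled arrays stood higher than every control, and total RNA was the lowest. Total RNA was under log2 5, and the fold against the controls takes it at its signal of 3.62. The log2 fold change was 3.94 (SE 1.13, 95% interval 0.80 to 7.07, adjusted p = 0.351 from limma). The 2 arrays of each RNP-IP group also differed between themselves, with an SD of 1.08 in the induced-labelled ones and 1.18 in the uninduced-labelled ones. The call was lost without induced-labelled RNP-IP 2 (log2 3.17, adjusted p = 0.590) and without uninduced-labelled RNP-IP 2 (3.90, adjusted p = 0.691). On the 3 arrays with the higher Gapdh 5' signal, which leave 1 induced-labelled array against 2 controls and 1 residual degree of freedom, it was 3.97 (adjusted p = 0.476). The study also picked Maf from these arrays, so its fold here is not independent evidence of its direction.

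Set against the uninduced-labelled RNP-IPs alone, in a fit with 3 groups, Maf 1447849_s_at was 9.04-fold higher in the induced-labelled ones (log2 3.18, SE 0.94, adjusted p = 0.420 from limma), and it was the 1 probe set of the 18 called higher and the 1 with an unadjusted p under 0.05, which 11.5% of all probe sets had. None was called lower. Over all probe sets 1.23% were called higher and 1.91% lower in this comparison. RNP-IPs with a like Gapdh 5' signal gave 9.50-fold, induced-labelled RNP-IP 1 over uninduced-labelled RNP-IP 2, and 8.61-fold, induced-labelled RNP-IP 2 over uninduced-labelled RNP-IP 1. The other 2 pairs, which have the same numbers but unlike 5' signals, gave 2.99-fold for RNP-IPs 1 and 27.4-fold for RNP-IPs 2. The call was lost without induced-labelled RNP-IP 1 (log2 3.94, adjusted p = 0.523), without induced-labelled RNP-IP 2 (2.41, adjusted p = 0.628) and without uninduced-labelled RNP-IP 2 (2.34, adjusted p = 0.559).

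The other probe sets of Maf did not give the same picture. Maf 1435828_at had signals of 4.27 and 7.20 in the induced-labelled RNP-IPs, 3.71 and 2.96 in the uninduced-labelled ones and 3.16 in total RNA. Only induced-labelled RNP-IP 2, one of the 2 arrays with a low Gapdh 5' signal, was above log2 5. Against controls that were all under this level the fold was at least 1.67, and it was not called (fitted log2 fold change 2.46, SE 0.98, adjusted p = 0.527), although it was called without induced-labelled RNP-IP 1 (3.92, adjusted p = 0.286).

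Maf 1456060_at was bright in all 4 RNP-IPs. This probe set was at 8.45 and 8.99 in the induced-labelled RNP-IPs, 8.82 and 8.72 in the uninduced-labelled ones and 5.80 in total RNA. The RNP-IP groups overlapped, and the log2 difference between them was -0.05 (SE 0.24, 95% interval -0.82 to 0.72, adjusted p = 0.948 from limma). Against the group of 3 controls it was 0.94 (SE 1.13, adjusted p = 0.794), a value that comes from the low total RNA array, since it was -0.05 without that array. The 3 probe sets of Maf under log2 5, 1437473_at, 1444073_at and 1447945_at, ran from 2.98 to 4.79. Which parts of the Maf transcript the 6 probe sets match was not analysed here, and the part that the 5' signal of the arrays has in these values was not tested.

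**Figure D2:**
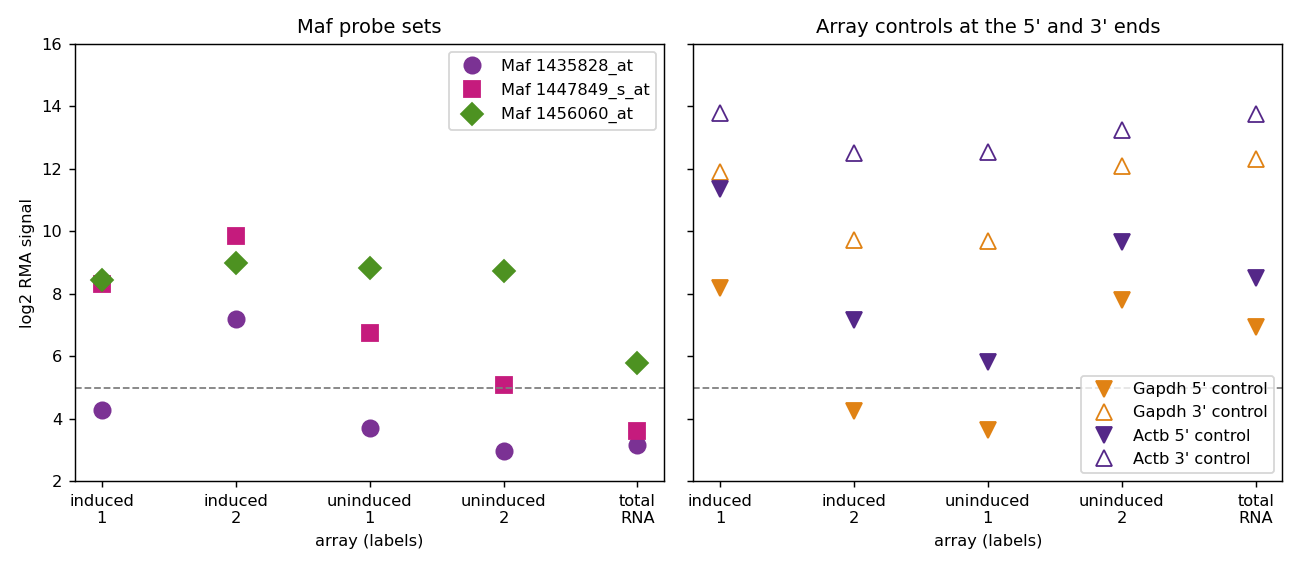
Log2 RMA signal (vertical axis) on each of the 5 arrays, named by their labels, of the 3 Maf probe sets that reached log2 5 (left) and of the array's own control probe sets at the 5' and 3' ends of Gapdh and Actb (right), with the dashed line at log2 5. Maf 1447849_s_at is at 8.32 and 9.84 in the induced-labelled RNP-IPs and at 6.74 or less on the other arrays, while Maf 1456060_at is at 8.45 to 8.99 in all 4 RNP-IPs, and the 5' controls are low in induced-labelled RNP-IP 2 and uninduced-labelled RNP-IP 1.

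Against total RNA the members split by gene. These comparisons set 2 RNP-IPs of a label against the single total RNA array, whose own spread is taken to be that of the RNP-IPs, and both share that array, so they are not independent of each other. In the induced-labelled RNP-IPs 2 of the 18 probe sets were called higher, both of Maf, and 2 lower, of Fosl1 and Jun. Over all probe sets 1.53% were called higher and 3.07% lower. In the uninduced-labelled RNP-IPs 1 probe set was called higher, of Maf, and 2 lower, again of Fosl1 and Jun, with 0.891% of all probe sets called higher and 0.933% lower. At an unadjusted p under 0.05 from limma there were 6 of the 18 in the comparison of the induced-labelled RNP-IPs, with 13.9% of all probe sets, and 4 in that of the uninduced-labelled ones, with 10.9%. The 6 included Maf 1437473_at and Maf 1444073_at, and the 4 included Maf 1437473_at, which were under log2 5 on every array. The rest were the called probe sets of Maf, Fosl1 and Jun.

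Fosl1 encodes Fra-1, a Fos family protein without the transactivation domain of Fos that is abundant in growing fibroblasts. Its probe set 1417487_at had signals of 5.69 and 5.69 in the induced-labelled RNP-IPs, 5.53 and 5.63 in the uninduced-labelled ones and 8.92 in total RNA. All 4 RNP-IPs lay close together and far below total RNA, and the equal values of the induced-labelled RNP-IPs were tied in the deposited data, as were those of 2 or more arrays in 55.1% of all probe sets. The log2 fold change against total RNA was -3.23 in the induced-labelled RNP-IPs (SE 0.07, 95% interval -3.46 to -3.00, adjusted p = 0.0912 from limma). In the uninduced-labelled ones it was -3.34 (SE 0.07, adjusted p = 0.156). The SE rests on 2 residual degrees of freedom and on those tied values. Between the RNP-IPs the difference was 0.11 (SE 0.06, 95% interval -0.08 to 0.30, adjusted p = 0.694).

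Jun encodes the subunit that gives AP-1 its strongest transactivation. Jun 1448694_at had signals of 5.76 and 5.91 in the induced-labelled RNP-IPs, 5.93 and 6.24 in the uninduced-labelled ones and 8.19 in total RNA. As with Fosl1, total RNA stood above all RNP-IPs. The log2 fold change against it was -2.36 in the induced-labelled RNP-IPs, 5.13-fold lower (SE 0.18, 95% interval -2.95 to -1.76, adjusted p = 0.110 from limma), and -2.11 in the uninduced-labelled ones, 4.32-fold lower (SE 0.18, adjusted p = 0.183). Between the RNP-IPs it was -0.25 (SE 0.15, 95% interval -0.73 to 0.24, adjusted p = 0.721). With total RNA among the controls neither gene was called in the induced-labelled RNP-IPs, at -1.01 for Fosl1 (SE 1.25, adjusted p = 0.800) and -0.95 for Jun (SE 0.80, adjusted p = 0.716), where the spread of the controls enters the SE.

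Maf 1456060_at was the member called above total RNA under both labels. The log2 fold change was 2.92 in the induced-labelled RNP-IPs (SE 0.29, 95% interval 1.98 to 3.86, adjusted p = 0.126 from limma) and 2.97 in the uninduced-labelled ones (SE 0.29, adjusted p = 0.198). Maf 1447849_s_at was at least 16.9-fold above total RNA in the induced-labelled RNP-IPs (adjusted p = 0.250), a bound set by counting total RNA at log2 5 and not at its signal of 3.62. In the uninduced-labelled ones it was at least 1.87-fold above and was not called (adjusted p = 0.664), although it was without uninduced-labelled RNP-IP 2 (log2 3.11, adjusted p = 0.484). In these bulk RNA samples a larger share of an mRNA on the beads and a smaller share in the total RNA of the single sample cannot be told apart.

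**Figure D3:**
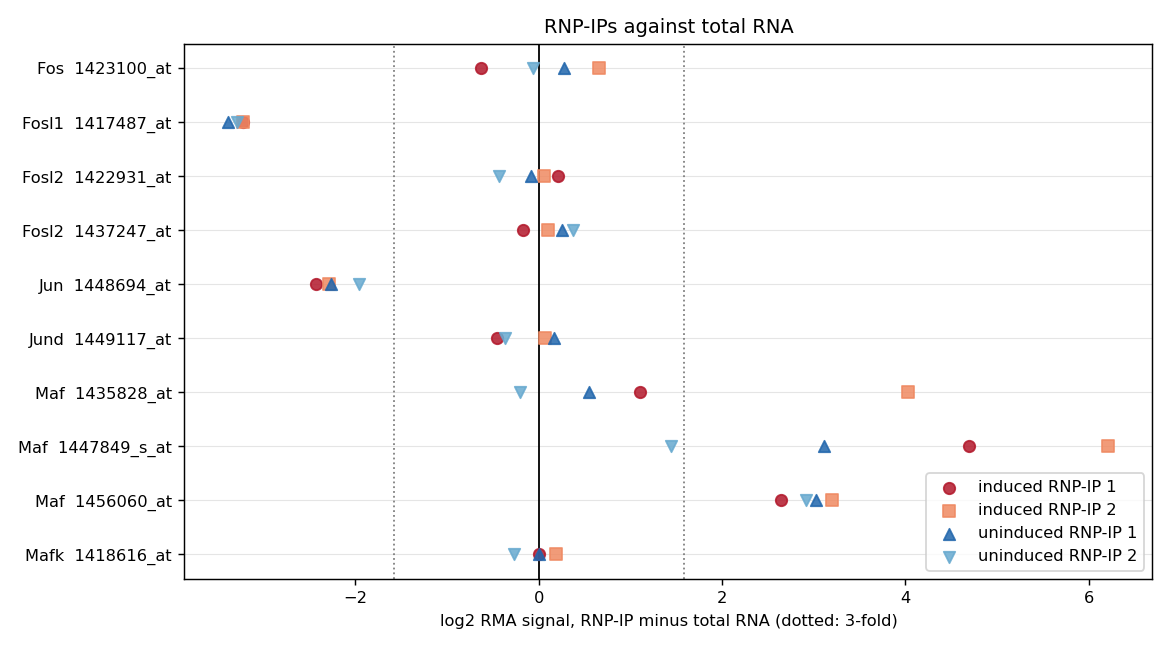
Log2 RMA signal of each RNP-IP minus that of total RNA (horizontal axis) for the 10 probe sets that reached log2 5 on at least 1 array, 1 probe set per line, each marker 1 RNP-IP named by its label, with dotted lines at 3-fold. All 4 RNP-IPs of Fosl1 1417487_at and Jun 1448694_at are left of the lower line, all 4 of Maf 1456060_at are right of the upper one, and those of Fos, Fosl2, Jund and Mafk lie between the lines.

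The remaining members stayed within 3-fold of each other on all 5 arrays. Fos, the founding member of its family, had signals of 5.82 and 7.10 in the induced-labelled RNP-IPs, 6.72 and 6.38 in the uninduced-labelled ones and 6.44 in total RNA. The widest gap was between the 2 induced-labelled arrays, which lay on either side of all controls (SD 0.91), and the log2 fold change against the controls was -0.05 (SE 0.43, 95% interval -1.27 to 1.16, adjusted p = 0.980 from limma). This interval does not leave out a change of 2-fold either way.

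Fosl2 encodes Fra-2, the relative of Fra-1 in the Fos family, and its probe set 1437247_at was the brightest of the 18. It had signals of 10.72 and 10.99 in the induced-labelled RNP-IPs, 11.14 and 11.26 in the uninduced-labelled ones and 10.89 in total RNA. The induced-labelled arrays lay below the uninduced-labelled ones by 0.35 on the log2 scale (difference -0.35, SE 0.13, 95% interval -0.78 to 0.07, adjusted p = 0.520 from limma). The other probe set of Fosl2, 1422931_at, ran the other way, at 6.32 and 6.17 in the induced-labelled RNP-IPs, 6.02 and 5.68 in the uninduced-labelled ones and 6.11 in total RNA (difference between the RNP-IPs 0.39, SE 0.16).

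Jund encodes a Jun family protein that is made in resting cells too. Jund 1449117_at had signals of 8.16 and 8.68 in the induced-labelled RNP-IPs, 8.78 and 8.24 in the uninduced-labelled ones and 8.61 in total RNA, and the groups overlapped. The log2 fold change against the controls was -0.12 (SE 0.25, 95% interval -0.82 to 0.58, adjusted p = 0.881 from limma). Mafk, the small Maf protein, had signals of 7.90 and 8.09 in the induced-labelled RNP-IPs, 7.90 and 7.63 in the uninduced-labelled ones and 7.90 in total RNA, with 3 tied arrays. Its log2 fold change was 0.19 (SE 0.13, 95% interval -0.17 to 0.54, adjusted p = 0.688), an interval that does leave out a change of 2-fold.

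Genes around AP-1 and Maf were read from 5 lists, with each gene read from its brightest probe set on average, and 75 of 86 listed genes had a probe set of their own. Of these 75, 57 reached log2 5 on at least 1 array, against 9095 of all 18194 genes. By list these were 16 of 18 genes upstream of AP-1, 14 of 18 other zipper proteins and 7 of 10 other Maf and CNC proteins. They were 10 of 16 AP-1 targets and 10 of 13 antioxidant-element genes. The rest count as not called but could not be followed at these signals. Against the controls, 2 of the 75 were called higher in the induced-labelled RNP-IPs and 3 lower, against shares of 1.32% higher and 2.36% lower over all 18194 genes. Of the 13 measured genes whose antioxidant elements are bound by small Maf heterodimers, 2 were higher and the other 11 were not called. Srxn1, the enzyme sulfiredoxin, had signals of 7.35 and 8.00 in the induced-labelled RNP-IPs, 4.42 and 4.37 in the uninduced-labelled ones and 5.76 in total RNA (log2 fold change 2.82, SE 0.56, adjusted p = 0.227 from limma). The uninduced-labelled ones were under log2 5, and the other 3 probe sets of Srxn1 had log2 fold changes between -0.04 and 0.23. It was not called without uninduced-labelled RNP-IP 2 (2.58, adjusted p = 0.520) or on the 3 arrays with the higher Gapdh 5' signal (2.28, adjusted p = 0.604). Txnrd1, a thioredoxin reductase, had 10.13 and 10.16 in the induced-labelled RNP-IPs, 7.85 and 8.81 in the uninduced-labelled ones and 8.61 in total RNA (log2 fold change 1.72, SE 0.33, adjusted p = 0.220). It fell under 3-fold without uninduced-labelled RNP-IP 1 (1.43) and on those 3 arrays (1.42). The other probe sets of Txnrd1, 1424486_a_at and 1424487_x_at, were not called (0.32 and -0.05). They were under log2 5 except for 5.38 of 1424486_a_at in induced-labelled RNP-IP 1. The median of this list was 0.01, against 0.00 over all genes.

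Among 16 measured genes described as AP-1 targets, 1 was lower against the controls and none higher. This was Timp1, an inhibitor of matrix metalloproteinases, with signals of 6.44 and 7.02 in the induced-labelled RNP-IPs, 9.05 and 8.83 in the uninduced-labelled ones and 10.36 in total RNA (log2 fold change -2.68, SE 0.57, adjusted p = 0.249 from limma). It was not called without induced-labelled RNP-IP 1 (-2.39, adjusted p = 0.508) or on the 3 arrays with the higher Gapdh 5' signal (-3.15, adjusted p = 0.540). Of 18 kinases and regulators upstream of AP-1, 1 was lower and none higher, the kinase Rps6ka3, which was at 6.21 and 7.63 in the induced-labelled RNP-IPs, 9.81 and 9.07 in the uninduced-labelled ones and 8.99 in total RNA (-2.37, adjusted p = 0.267). It was not called without uninduced-labelled RNP-IP 2 (-2.48, adjusted p = 0.563). The other probe sets of Rps6ka3, 1427299_at and 1452383_at, were not called (-0.14 and -0.002), at signals of 5.48 or less.

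Of 18 other zipper proteins that pair with AP-1 or share its sites, 1 was lower, the cAMP-response factor Creb1, at 6.71 and 7.59 in the induced-labelled RNP-IPs, 9.59 and 9.26 in the uninduced-labelled ones and 8.01 in total RNA (log2 fold change -1.80, adjusted p = 0.436 from limma). Another probe set of Creb1, 1423402_at, went the other way, at 8.08 and 8.42 in the induced-labelled RNP-IPs, 6.50 and 5.87 in the uninduced-labelled ones and 5.98 in total RNA (2.13, adjusted p = 0.118). A further one, 1452901_at, was called lower as well, at 7.20 and 7.09 in the induced-labelled RNP-IPs, 8.89 and 9.18 in the uninduced-labelled ones and 8.54 in total RNA (-1.73, adjusted p = 0.128). The lower call of the brightest probe set was lost without induced-labelled RNP-IP 1 (-1.36), without uninduced-labelled RNP-IP 1 (-1.49), without uninduced-labelled RNP-IP 2 (-1.65) and on the 3 arrays with the higher Gapdh 5' signal (-1.92, adjusted p = 0.624). None of 10 other Maf and CNC proteins was called against the controls.

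Against the uninduced-labelled RNP-IPs alone, 3 of the 75 listed genes were called higher in the induced-labelled ones and 6 lower, where shares of 1.38% higher and 2.65% lower were found over all genes. The higher ones were Srxn1, Txnrd1 and Gclm, a subunit of the enzyme that makes the glutathione precursor, which makes 3 of the 13 antioxidant-element genes. Gclm had signals of 8.65 and 8.32 in the induced-labelled RNP-IPs, 5.95 and 6.53 in the uninduced-labelled ones and 8.10 in total RNA (log2 difference between the RNP-IPs 2.25, SE 0.28, adjusted p = 0.190 from limma). The lower ones were Timp1, Rps6ka3, Creb1, the zipper protein Atf2 (-1.59, adjusted p = 0.339), the ubiquitin ligase subunit Fbxw7 (-1.71, adjusted p = 0.140) and Bach1, a CNC family repressor that pairs with small Maf proteins. Bach1 was at 9.59 and 9.08 in the induced-labelled RNP-IPs, 11.45 and 11.08 in the uninduced-labelled ones and 8.87 in total RNA (-1.93, SE 0.27, adjusted p = 0.206). For Gclm, Atf2, Fbxw7 and Bach1 only the brightest probe set on average was read. The study's own list from these arrays holds Atf2 as enriched, the other direction, so the lower call of Atf2 stands for this probe set alone.

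Against total RNA the AP-1 targets were the list with the most calls. In the induced-labelled RNP-IPs 5 of the 16 were lower and none higher, with 4.5% of all genes called lower and 2.03% higher. They were Timp1 (log2 fold change -3.63, adjusted p = 0.121 from limma), the adhesion receptor Cd44 (-2.98, adjusted p = 0.241), the chemokine Ccl2 (-2.21, adjusted p = 0.103), the urokinase receptor Plaur (-2.00, adjusted p = 0.174) and the cyclin Ccnd1 (-1.94, adjusted p = 0.480). The median of the 16 was -0.76, against 0 over all genes. In the uninduced-labelled RNP-IPs 2 of the 16 were lower, Ccl2 (-2.72, adjusted p = 0.156) and Cd44 (-2.51, adjusted p = 0.380), with 1.36% of all genes called lower and 1.26% higher. The 1 gene of the lists called higher there was Bach1 (2.40, adjusted p = 0.250). Outside the AP-1 targets, Gclm was called lower in the uninduced-labelled RNP-IPs (-1.86). In the induced-labelled ones the kinases Rps6ka3 (-2.07), Mapk9 (-2.01) and Map2k2 (-1.80) were also called lower. Srxn1 (1.91) and the zipper protein Crem (1.89) were called higher there. Each of these values is from the gene's brightest probe set on average, and its other probe sets were not read in these comparisons.

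**Figure D4:**
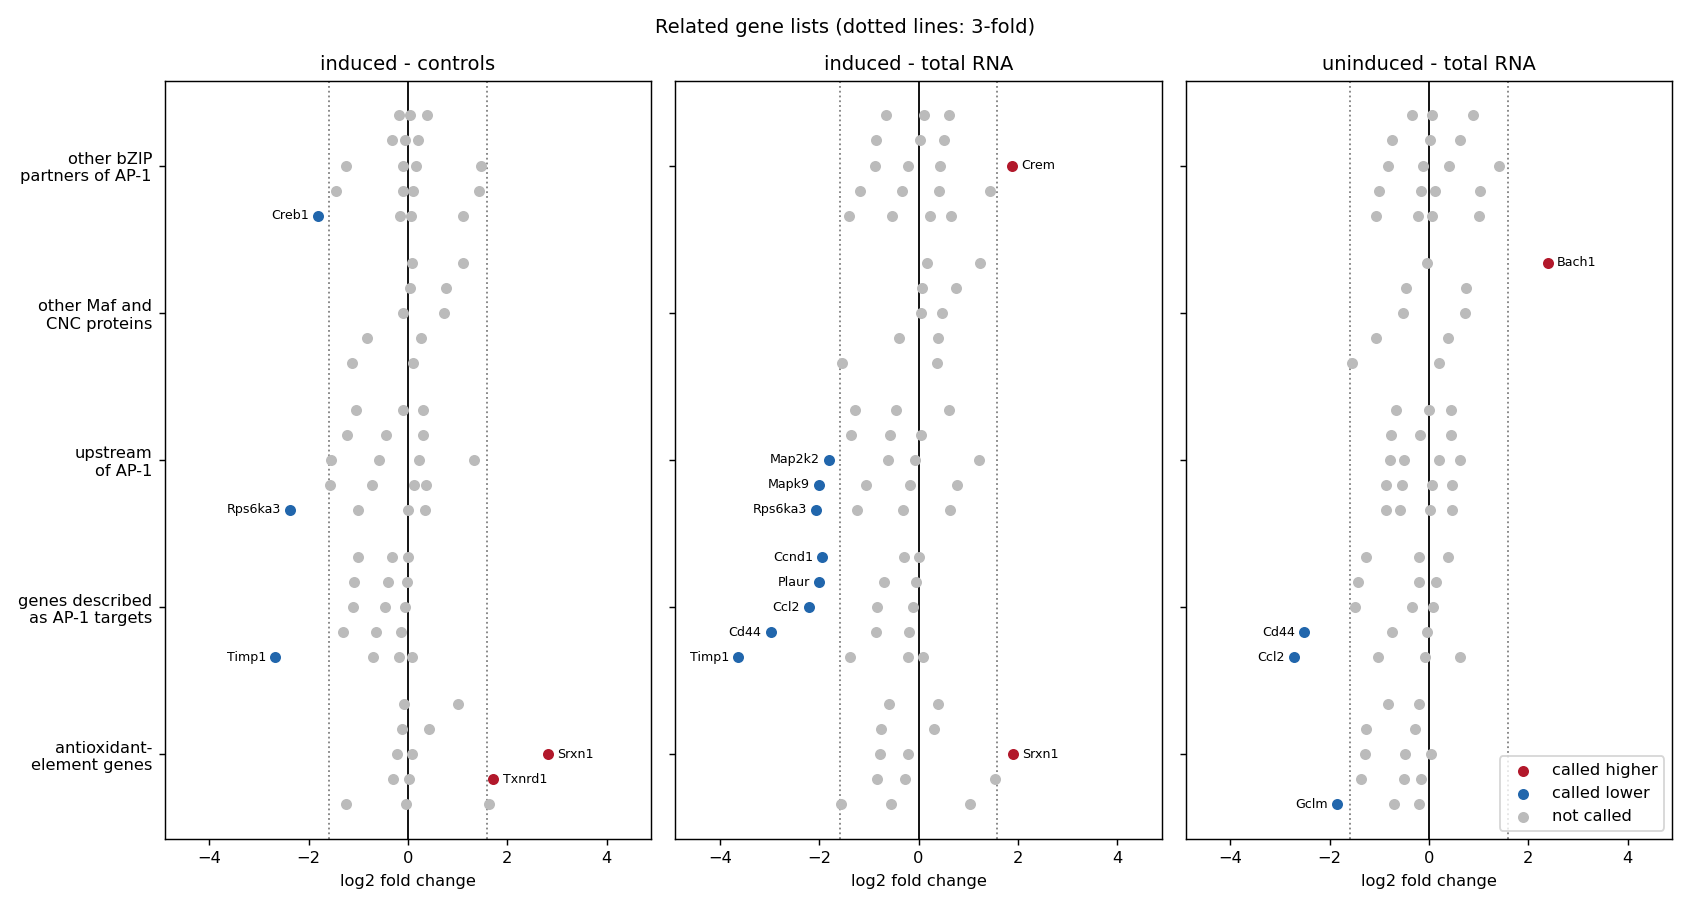
Log2 fold change (horizontal axis) of the 75 measured genes of the 5 lists in 3 comparisons, induced-labelled RNP-IPs against the 3 controls, the induced-labelled ones against total RNA and the uninduced-labelled ones against total RNA, each point 1 gene, with dotted lines at 3-fold and called genes named. Srxn1 and Txnrd1 are the 2 called higher in the left panel, and 5 of the 16 AP-1 targets are called lower in the middle one.

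The genes closest in pattern to the highest and the lowest member were taken by the smallest root mean square difference over the 5 arrays, after each probe set's own mean was subtracted. For Maf 1447849_s_at these were Nmrk1 (0.589), Cisd1 (0.607) and Selenop (0.711). Nmrk1 had log2 signals of 7.97 and 8.45 in the induced-labelled RNP-IPs, 6.40 and 5.50 in the uninduced-labelled ones and 3.50 in total RNA. For Fosl1 1417487_at they were Taf1d (0.0938), Cd44 (0.184) and Nipal1 (0.240). The Cd44 probe set was at 6.49 and 6.73 in the induced-labelled RNP-IPs, 6.80 and 6.87 in the uninduced-labelled ones and 9.81 in total RNA, with total RNA alone standing high, as for Fosl1.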

How the data were processed

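RNA of 4 RNP-IPs and 1 total RNA sample was labelled by a two-cycle protocol and hybridized to mouse GeneChips. RMA was run by the authors (version not given in the sources used here), who deposited log2 values for 45101 probe sets, used here as deposited. With R 4.3.3, limma 3.58.1 (lmFit and eBayes) was fitted to all probe sets, with 3 residual degrees of freedom for the group of 3 controls and 2 for the fit with 3 groups, and p-values were adjusted over all of them. The fits were tested on simulated data. The number of arrays limits the precision. In the fit with 3 groups the p-values measure the spread between these RNP-IPs. With the group of 3 controls they also take in the difference between the uninduced-labelled RNP-IPs and total RNA. Gene names came from an array annotation of 2016, which gives 34958 probe sets 1 gene. Named were all members, Hnrnpd, up to 3 called genes of each list in either direction, and the 3 genes nearest in pattern to the highest and lowest member. The genes named against total RNA or against the uninduced-labelled RNP-IPs alone, and the other probe sets of Creb1, were chosen after their values were seen. Members and lists were chosen with earlier results of these data known. Alternatives changed the normalization, the filter, the prior, the call rule, the arrays and the block. Replicate numbers were not used to pair the RNP-IPs in the main fits, and replicates were grouped by their labels.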

Additional observations from a re-analysis of the deposited data

How the results depend on the processing

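With an adjusted p under 0.05 from limma in place of 0.5, the counts of called members and listed genes were 0 in every comparison. Members called higher in the induced-labelled RNP-IPs against the controls numbered 2, both of Maf, with cyclic loess, with median centring and with trended robust priors, against 1 as reported, and between 0 and 2 with 1 RNP-IP left out. Against the uninduced-labelled RNP-IPs alone they numbered 0 to 1 with 1 RNP-IP left out. The members above total RNA numbered 2 to 3 in the induced-labelled RNP-IPs with 1 RNP-IP left out, and 1 to 2 in the uninduced-labelled ones, where a filter on dim probe sets also gave 2. Members called below total RNA stayed at 2 under every alternative except the stricter p. Of the listed genes, 6 were higher and 9 lower at a fold of at least 2, 1 higher and 5 lower on the 3 arrays with the higher Gapdh 5' signal, 3 higher and 6 lower without total RNA, and 2 to 4 higher and 1 to 7 lower with 1 RNP-IP left out. Creb1 turned to 2.13 when read from the probe set that moved most. Over all probe sets, 523 were called higher against the controls as reported. They numbered 602 with cyclic loess, 524 with median centring and 542 with trended robust priors. At a fold of at least 2, 1108 were higher and 1549 lower over all probe sets, against 523 and 749 as reported. Without total RNA, 554 were higher and 861 lower. Calls over all probe sets also changed with 1 RNP-IP left out. The cause was not tested for these changes. Where 1 RNP-IP of a label was left out, the lone one was assumed to vary like the other groups. For single members and named genes, 726 values kept their side of the threshold, of which 685 kept their sign and 41, not called in either setting, changed it. Another 31 lost and 9 gained a call, and 1 called value turned.

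The deviations of RNP-IPs with the same number correlated at -0.50 across 45101 probe sets. RNP-IPs with the same number also had unlike Gapdh 5' signals, so this value cannot show whether they were made together. The sources used here do not say, and the main fits used no pairing. With the replicate number as a block no member was called between the RNP-IPs (0, and Maf 1447849_s_at at 3.18, adjusted p = 0.703 from limma), and with the numbers crossed 2 were, both of Maf. Over all probe sets the block gave 286 higher and 368 lower, and the crossed pairing 647 and 968. The crossed pairing, the 3 arrays chosen by 5' signal and the alternatives of the lists that leave out arrays were added after seeing the data. Signals under log2 5 limit 8 of the 18 probe sets, so a change in Fosb or Junb was not detectable here.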
